A study of Mus musculus with 4 samples.

Results

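Genes of the complement system, 9 in all, were examined in thioglycollate-elicited peritoneal macrophages of 2 inbred mouse strains: C1qa, C1qb and C1qc, C3, Cfb, Cfp, Hc, C3ar1 and C5ar1. They were taken from the deposited table by symbol, with 1 probe set a gene, and 8 of the 9 were measured among the 22180 genes tested. C3 was not analysed here. The samples were 4 RNA pools of wild type mice on chow, made of 129S6/SvEv (129) females, 129 males, DBA/2J (DBA) females and DBA males, with no transgene or deletion in any group. The mice were 3 months old and received 1 ml of 4% thioglycollate medium in the peritoneum, which draws in monocytes that become macrophages. Cells were lavaged 4 days later and kept in culture overnight, and 250 ng RNA of each pool was hybridised to its own Affymetrix Mouse Gene 2.0 ST array. The labels give 3 mice in a pool and the methods give a larger number, so each pool is an average over several animals and carries no spread between mice.

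Complement is a cascade of plasma proteins that marks microbes, dying cells and immune complexes for removal. Liver makes most of the plasma proteins, but macrophages are a main source of C1q and also release factor B, properdin and other components at the site of inflammation. The classical pathway starts when C1q binds antibody or a dying cell, the alternative pathway is driven by factor B and stabilised by properdin, and both cleave C3 and then C5. The small fragments C3a and C5a, called anaphylatoxins, act on the receptors encoded by C3ar1 and C5ar1 on myeloid cells. DBA/2J is among the inbred strains known to lack C5 in the blood because of a frameshift in Hc, the gene that encodes C5.

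The male and the female pool served as the 2 replicates of a strain. Their spread therefore includes any difference between the sexes. Expression is given as log2 values, on which a difference of 1 is a doubling, and the strains were compared in limma with Benjamini-Hochberg adjustment across the whole table, an adjusted p under 0.05 being taken as a change. An exact permutation test of 2 pools against 2 cannot give a p below 0.333, and with 4 arrays all values are of limited precision. Olfactory and vomeronasal receptor genes, which macrophages are not known to use, served to place the background: of 1394 such genes, 95% had means under 7.17, called the background reference here. The correlation between arrays over all genes lay between 0.985 and 0.993, and the transcripts of the sex chromosomes matched the labelled sex in all 4 pools. In bulk RNA, fewer cells of a type and less RNA per cell cannot be told apart. All 16 measured macrophage markers had at least 1 pool above the reference, 15 of them in every pool. None passed the test between the strains in limma. An unadjusted p under 0.05 was found for 8, 6 of them higher in DBA, beside 11.5% of all genes in either direction. The B cell list was above the reference as well, with a mean log2 value over its 10 measured genes of 8.77 (129 females), 8.57 (129 males), 9.99 (DBA females) and 8.94 (DBA males).

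None of the 8 complement genes passed the test between DBA and 129 in limma, where 0.374% of all genes did (0.216% higher and 0.158% lower in DBA), and 1 of them, C5ar1, had an unadjusted p under 0.05, which 11.5% of all genes had. With a term for sex in the limma fit (sex as a block), the unadjusted p was 0.00127 for C5ar1, 0.0107 for Cfb, 0.0213 for C1qb and 0.0387 for C1qc. It was 0.166 or more for C1qa, C3ar1, Cfp and Hc. None passed in that fit (lowest adjusted p 0.156, for C5ar1). The share of all genes with an unadjusted p under 0.05 in that fit is not given here. The pools of the strains did not overlap for 5 of the 8, as for 44.4% of all genes. Of these, C5ar1, Cfb and C3ar1 were above the 129 pools (23.0% of all genes) and C1qb and C1qc were below them (21.4% of all genes). The median log2 difference of the 8 genes was -0.01, beside 0.00446 over all genes tested. The differences ranged from -0.69 for C1qc to 0.91 for C5ar1.

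**Figure D1:**
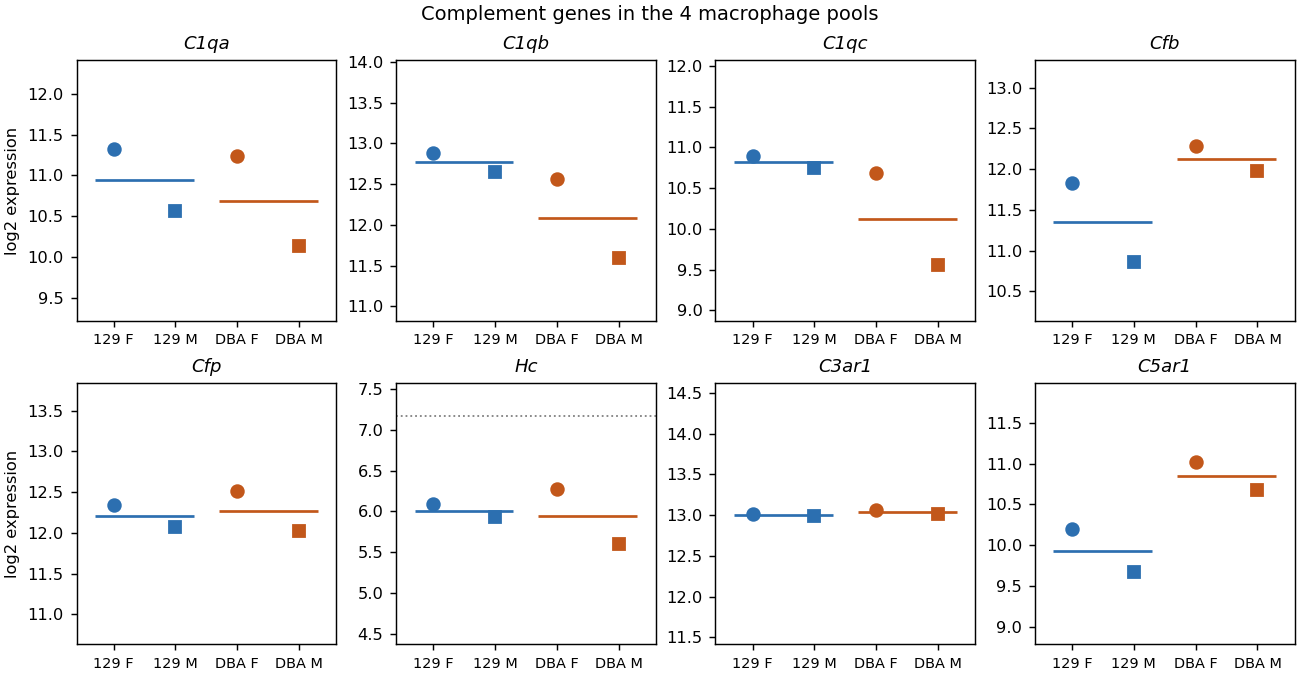
Log2 expression (vertical axis) of the 8 measured complement genes in the 129 female, 129 male, DBA female and DBA male pools (circles, females; squares, males; lines, strain means; dotted line, background reference of 7.17). The DBA male pool was lowest for the 3 C1q genes, both DBA pools were above both 129 pools for C5ar1 and Cfb, and every Hc value lay below the reference.

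The 3 C1q genes encode the A, B and C chains that together form the recognition molecule of the classical pathway. They lie next to each other on chromosome 4. Of the promoters below, C1qb and C1qc are of this cluster and had like patterns over the 4 pools, and the third is that of C5ar1, which of the 8 genes had the largest difference between the strains. They come from RefSeq (build GRCm38.p6, the C57BL/6J reference, so no strain difference is shown), run from 250 bases before the transcript start to 50 bases after it, and capitals mark GAGGAA or its reverse complement, the core bound by PU.1, a factor of the myeloid lineage.
C1qb, chr4:136886151-136886450, minus strand: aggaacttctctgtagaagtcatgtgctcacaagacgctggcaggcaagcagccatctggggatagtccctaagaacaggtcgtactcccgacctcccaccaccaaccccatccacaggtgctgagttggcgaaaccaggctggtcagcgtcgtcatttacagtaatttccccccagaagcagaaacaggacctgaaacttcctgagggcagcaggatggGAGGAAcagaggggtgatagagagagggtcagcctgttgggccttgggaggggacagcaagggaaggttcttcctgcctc
C1qc, chr4:136892865-136893164, minus strand: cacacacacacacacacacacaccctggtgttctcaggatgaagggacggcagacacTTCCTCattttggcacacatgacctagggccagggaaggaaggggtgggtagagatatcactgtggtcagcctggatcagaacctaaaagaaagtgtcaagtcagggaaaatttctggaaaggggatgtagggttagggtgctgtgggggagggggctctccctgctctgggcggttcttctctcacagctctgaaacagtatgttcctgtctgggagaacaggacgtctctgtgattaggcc
C5ar1, chr7:16259289-16259588, minus strand: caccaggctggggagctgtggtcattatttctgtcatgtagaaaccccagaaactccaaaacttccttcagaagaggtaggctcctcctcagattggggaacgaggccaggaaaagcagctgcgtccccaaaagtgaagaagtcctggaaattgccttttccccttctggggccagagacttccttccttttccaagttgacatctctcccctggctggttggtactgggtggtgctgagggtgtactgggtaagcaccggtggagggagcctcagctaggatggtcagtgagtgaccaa
Counted from the transcript start, the letters GAGGAA began at -30 in C1qb on the gene's strand and at -193 in C1qc on the opposite strand, and the C5ar1 window held none. The same search found them in 3 of the 7 complement genes in the promoter table, the third being Cfp, and in 28.3% of 32851 promoters, so their presence is common. The core of the interferon-stimulated response element was in none of the 7 (3.44% of all promoters), and the AP-1 site TGANTCA was in that of C3ar1 alone (7.81% of all promoters). Both strands were searched. C1qa and Cfb were not in the table.

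C1qb, which encodes the B chain, had log2 values of 12.88 in 129 females, 12.65 in 129 males, 12.56 in DBA females and 11.60 in DBA males. The DBA male pool stood apart on the low side, and the DBA female pool was close beneath the 129 pools. The log2 difference between DBA and 129 was -0.69 (standard error, SE, 0.31, 95% interval -1.46 to 0.08, adjusted p = 0.471, limma), or -0.32 between the female pools and -1.05 between the male pools. Omitting the DBA female pool moved it to -1.17 and omitting the DBA male pool to -0.20, which sets DBA of 1 sex against 129 of both.
C1qc, which encodes the C chain, had the same order, with log2 values of 10.89 in 129 females, 10.74 in 129 males, 10.69 in DBA females and 9.56 in DBA males. Its log2 difference was -0.69 (SE 0.35, adjusted p = 0.505), with -0.21 in females and -1.18 in males. For both genes the gap between the strains was the larger one in males. C1qc passed the test without the DBA female pool (log2 difference -1.26, adjusted p = 0.0326), a fit that takes the spread of the lone DBA male pool from the 129 pools, and had a log2 difference of -0.13 without the DBA male pool. Over its 11 alternatives its adjusted p ranged from 0.0326 to 0.985.
C1qa, which encodes the A chain, had log2 values of 11.33 in 129 females, 10.56 in 129 males, 11.24 in DBA females and 10.13 in DBA males, so that the strains overlapped. Both males were below both females. Its log2 difference between the strains was -0.26 (SE 0.41, 95% interval -1.28 to 0.76, adjusted p = 0.836), with -0.08 in females and -0.43 in males. It changed sign when the 129 female pool (0.13) or the DBA male pool (0.30) was omitted, which leaves the strains unequal in sex.
Among the 13377 other genes with a mean above the background reference, C1qb was the closest to C1qc in its pattern over the 4 pools, at a Euclidean distance of 0.128 log2 units after each gene's mean was subtracted. Erdr1, Ftl1-ps2 and 1810012K16Rik followed at 0.249, 0.339 and 0.364.
Of the protein-coding genes beside the C1q cluster in gene order, the Wnt ligand gene Wnt4 and Lactbl1 also had both DBA pools below both 129 pools, Wnt4 with a log2 difference of -0.53 (SE 0.12, adjusted p = 0.203). Zbtb40 and Epha8 had differences of -0.04 and -0.01, Lactbl1 one of -0.18 and Tex46 one of -0.02, none past the test, and Ephb2 was not analysed here. Tex46 was below the background reference in every pool and Lactbl1 in both DBA pools.

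Cfb and Cfp serve the alternative pathway. Cfb encodes factor B, the protease of its C3 convertase, which is induced in macrophages by inflammatory signals. Its log2 values were 11.84 in 129 females, 10.86 in 129 males, 12.28 in DBA females and 11.98 in DBA males. The DBA pools both exceeded the 129 pools, and the 129 male pool stood well beneath the other 3. The log2 difference was 0.78 (SE 0.32, 95% interval -0.01 to 1.58), a ratio of mean linear levels of 1.64, and did not pass the test (adjusted p = 0.435, limma). It was 0.44 between the female pools and 1.12 between the male pools. Without the 129 male pool it was 0.29 and without the 129 female pool 1.27, neither past the test, with adjusted p from 0.157 to 0.898 over its 11 alternatives.
Cfp, on the X chromosome, encodes properdin, the only known positive regulator of the pathway. It had log2 values of 12.34 in 129 females, 12.07 in 129 males, 12.52 in DBA females and 12.02 in DBA males. The DBA pools lay outside the 129 pools on either side. The log2 difference was 0.07 (SE 0.20, 95% interval -0.42 to 0.55, adjusted p = 0.918).
The genes whose patterns were closest to that of Cfb were Gpr84, Pilra, Clec4n and Tgfbi, at distances of 0.192, 0.222, 0.227 and 0.249 log2 units. All 4 had higher strain means in DBA, by 0.73, 0.90, 0.95 and 0.94 on the log2 scale.

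Hc encodes C5, whose cleavage yields C5a and starts the membrane attack complex. Its log2 values were 6.09 in 129 females, 5.93 in 129 males, 6.28 in DBA females and 5.60 in DBA males. All 4 were below the background reference, so no level of the transcript was measurable in either strain, and the array does not read the frameshift known in DBA/2J. The log2 difference was -0.07 (SE 0.23, 95% interval -0.64 to 0.50, adjusted p = 0.931).
The genes beside Hc on chromosome 2 were read as well. Traf1, a TNF receptor adaptor, had a log2 difference of -0.09, Cntrl one of -0.03 and Rab14 one of -0.04, with Phf19, Cutal and AI182371 at 0.16, -0.17 and -0.17. None passed the test, and in none of the 6 did the DBA pools lie on one side of the 129 pools. Every value of AI182371, and every value of Cutal but that of the 129 females, was below the background reference.

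C5ar1 encodes the receptor for C5a, which draws and activates neutrophils and macrophages. It had log2 values of 10.20 in 129 females, 9.66 in 129 males, 11.01 in DBA females and 10.67 in DBA males. Both DBA pools were above both 129 pools, and the gap between the strains was of like size in both sexes, at 0.82 in females and 1.01 in males. The ratio of mean linear levels of DBA to 129 was 1.86, and the log2 difference was 0.91 (SE 0.21, 95% interval 0.38 to 1.44). Its unadjusted p was 0.00581 and after adjustment it was not called (adjusted p = 0.229, limma). The difference stayed between 0.65 and 1.18 over its 11 alternatives, with adjusted p from 0.0623 to 0.664.
Ccr2, the chemokine receptor that draws monocytes out of the blood, was the gene closest to C5ar1 in pattern, at a distance of 0.0396 log2 units. Its log2 values were 8.82 in 129 females, 8.27 in 129 males, 9.66 in DBA females and 9.27 in DBA males. Olfm1, Spata13 and Pilra followed at 0.063, 0.0931 and 0.131. These are likenesses over 4 pools, and many genes can share such a pattern.
C3ar1 encodes the receptor for C3a. Its log2 values of 13.01 in 129 females, 12.99 in 129 males, 13.06 in DBA females and 13.01 in DBA males were nearly equal, and both DBA pools were above both 129 pools by a small margin. The log2 difference was 0.04 (SE 0.11, adjusted p = 0.905). Its 95% interval of -0.22 to 0.30, which rests on the spread of these 4 pools, lay below the difference of 0.91 in C5ar1.
C5ar2, which encodes the second C5a receptor, had log2 values of 8.24 in 129 females, 8.44 in 129 males, 8.37 in DBA females and 7.95 in DBA males. It lies next to C5ar1 on chromosome 7, and its log2 difference of -0.18 (SE 0.17, adjusted p = 0.715) had the opposite sign.

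**Figure D2:**
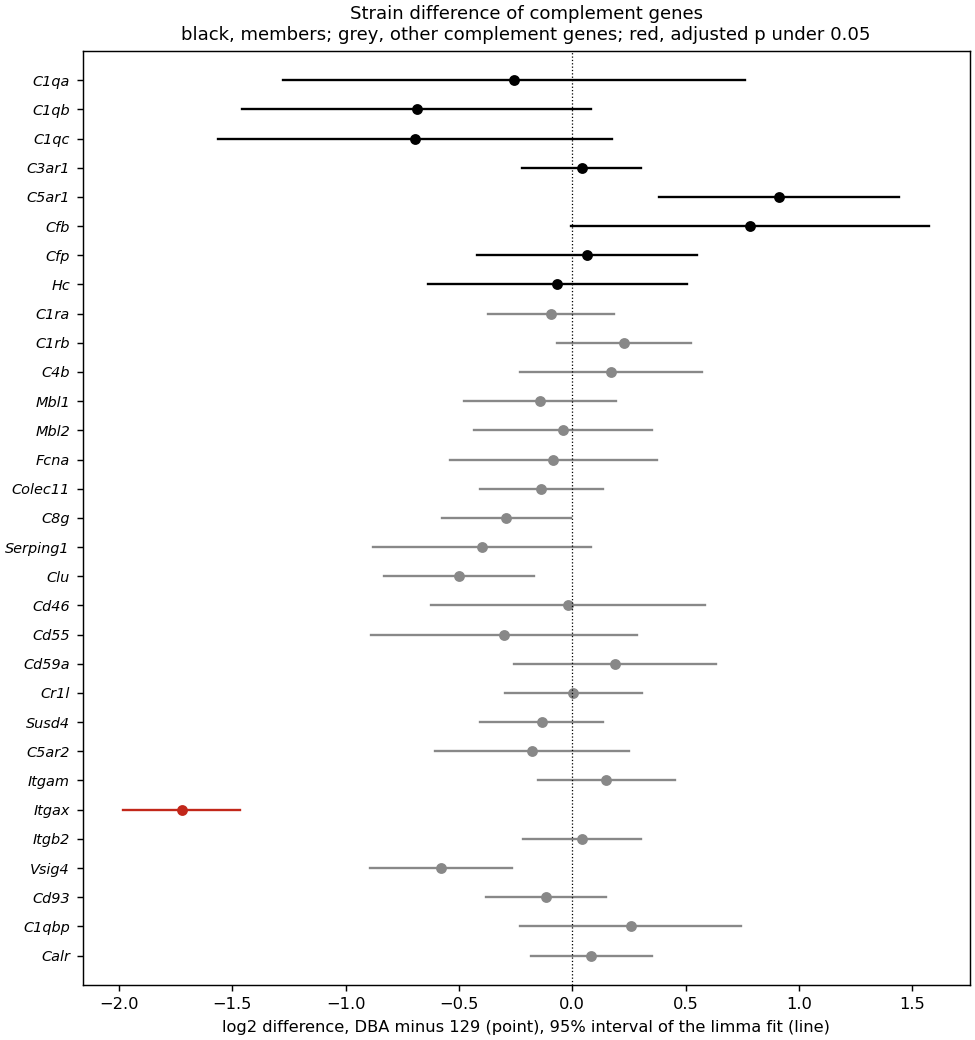
Log2 difference between DBA and 129 (horizontal axis, DBA minus 129) with the 95% interval of the limma fit, for the 8 measured genes named at the outset (black) and for the other complement genes with at least 1 pool above the background reference (grey, red where the adjusted p was under 0.05). The interval of C5ar1 lies above 0 and those of the 3 C1q genes cross 0, while Itgax at -1.72 is the only gene in red.

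The cell type lists were set beside these differences. Over all genes, 23.0% were higher and 21.4% lower in both DBA pools, and 11.5% had an unadjusted p under 0.05 (limma). Of the 10 measured B cell markers, 9 were higher and 1, Cd22 (log2 difference -1.84, SE 0.35, adjusted p = 0.168), was lower in both DBA pools, and none passed over all genes in limma, though 9 (8 of them higher) had an unadjusted p under 0.05. Among them the surface protein gene Ms4a1 had a log2 difference of 1.75 (SE 0.43, adjusted p = 0.246). Of the 16 macrophage markers, 11 were higher in both DBA pools and 3 were lower (23.0% and 21.4% of all genes), none past the test. The higher ones included the scavenger receptor gene Marco at 1.45 (SE 0.24, adjusted p = 0.119), the high affinity IgG receptor gene Fcgr1 at 0.97 and the endotoxin receptor gene Cd14 at 0.75. Another was the efferocytosis receptor gene Timd4 at 0.56 (SE 0.27, adjusted p = 0.494, limma). The lower ones were Gata6, the factor of resident peritoneal macrophages, at -0.50 (unadjusted p = 0.00944, adjusted p = 0.270), Mertk at -0.30 and Cd68 at -0.09. The share of resident macrophages in the pools was not tested. The mean log2 value of the macrophage list was 11.15 in 129 females, 10.92 in 129 males, 11.44 in DBA females and 11.27 in DBA males. Of the 12 neutrophil markers, 4 were higher and 1 was lower in both DBA pools, none past the test (3 at an unadjusted p under 0.05), and 7 were below the background reference in all 4 pools. Among 7 mast cell markers the protease gene Mcpt4 was higher in DBA (adjusted p = 0.0245), with both 129 pools below the background reference, so that the size of its difference is not given, and the call was lost on omitting either 129 pool (adjusted p = 0.128 for the female and 0.162 for the male one) and with all probe sets together (adjusted p = 0.239). Hdc, the histamine-forming enzyme of the same list, had both DBA pools below both 129 pools and below the reference (unadjusted p = 0.00421, adjusted p = 0.203), and Cpa3 and Tpsb2 overlapped between the strains. No marker of T and NK cells (10 measured), dendritic cells (6), endothelial cells (6) or hepatocytes (7) passed, and those with an unadjusted p under 0.05 were 3, 1, 1 and 0. The part of other cells in the values of the complement genes was not tested.

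Of 50 further genes of the system, 45 were measured. None was called higher in DBA, 1 was called lower and 44 were not called (limma). Over all genes, 0.216% were called higher and 0.158% lower in DBA. An unadjusted p under 0.05 was found for 5, of which 1 was higher and 4 were lower, beside 11.5% of all genes. The higher one was Cr2, below the background reference in every pool, and the lower ones were Itgax, Vsig4, Clu and C8g. The pools did not overlap in 19 of the 45, 7 higher and 12 lower in DBA, beside 44.4% of all genes (23.0% higher and 21.4% lower), and the median log2 difference was -0.04. Of the 45, 22 were below the background reference in all 4 pools.
The gene called lower was Itgax, which encodes the alpha chain of complement receptor 4 and is also a marker of dendritic cells. Its log2 values were 12.64 in 129 females, 12.64 in 129 males, 10.93 in DBA females and 10.91 in DBA males, a log2 difference of -1.72 (SE 0.10, adjusted p = 0.0100). The call was lost when the 129 female pool was omitted (adjusted p = 0.0594), when the 129 male pool was (adjusted p = 0.0807) and when all probe sets were tested together (adjusted p = 0.157), at differences of -1.73, -1.72 and -1.72, with a range of adjusted p from 0.000854 to 0.157 over its alternatives.
Among the other receptors, Itgam and Itgb2, which encode the chains of complement receptor 3, had log2 differences of 0.15 and 0.04. Vsig4, the receptor for C3b on resident macrophages, had log2 values of 11.99 in 129 females, 11.78 in 129 males, 11.25 in DBA females and 11.37 in DBA males, a difference of -0.58 (SE 0.13, adjusted p = 0.203). The B cell receptor for C3d, Cr2, did not pass (adjusted p = 0.409) and had values under the background reference in every pool, so that no level was measurable.

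**Figure D3:**
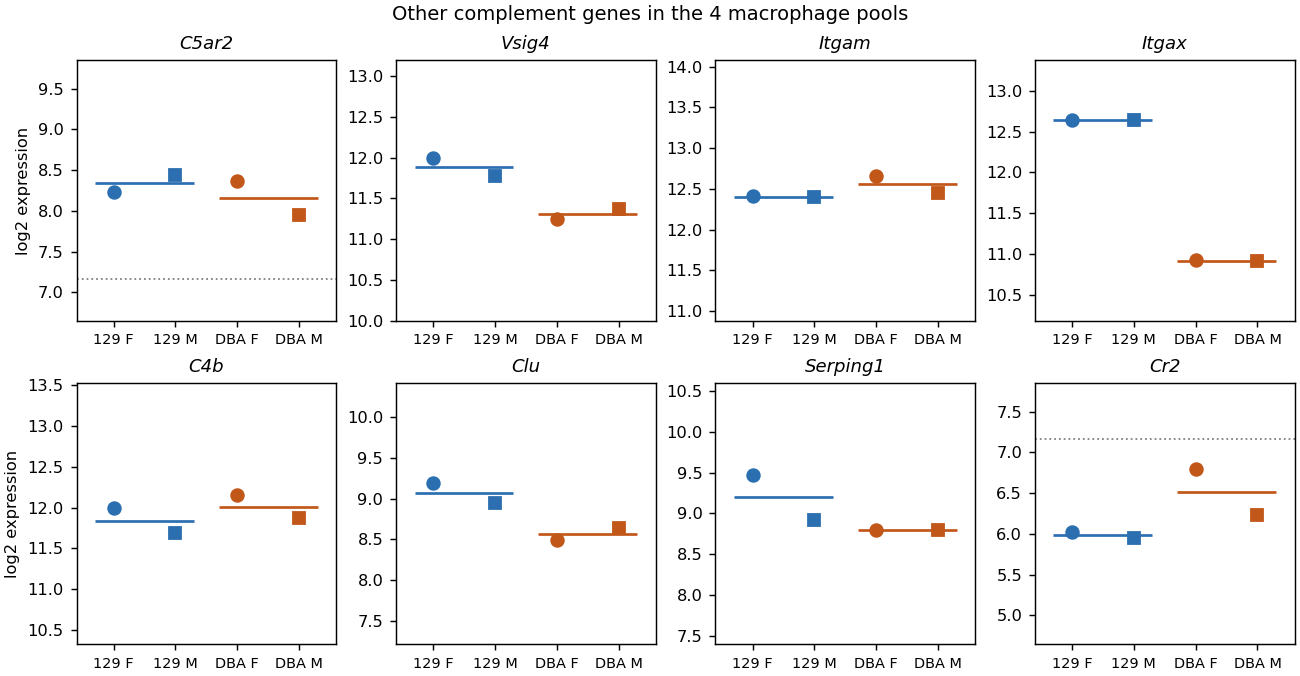
Log2 expression (vertical axis) of 8 other complement genes in the 4 pools (circles, females; squares, males; lines, strain means; dotted line, background reference of 7.17). Itgax differs between the strains by 1.72 with little spread between the sexes, Vsig4, Clu and Serping1 are lower in both DBA pools, and Cr2 lies below the reference.

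Of the 14 measured genes of the classical and lectin pathways none passed, and 7 were below the reference in all pools. C4b, which encodes the classical component C4 and shares nearly all its sequence with C4a so that probes may read both, had log2 values of 12.00 in 129 females, 11.69 in 129 males, 12.16 in DBA females and 11.87 in DBA males, with a log2 difference of 0.17 (SE 0.16). C1rb had a difference of 0.23 (SE 0.12, adjusted p = 0.518), while C1s1, Masp1 and Colec10 were among those below the reference. Fcna, which encodes the lectin ficolin-A, had a difference of -0.08.
Of the 6 genes of the terminal pathway none passed and 5 were below the reference in all pools. The exception was C8g, with a log2 difference of -0.29 (SE 0.12, adjusted p = 0.421).
None of the 8 soluble or the 8 membrane regulators passed. Clu, which encodes clusterin, a chaperone that also inhibits the attack complex, had a log2 difference of -0.50 (SE 0.13, adjusted p = 0.286), and Serping1, the C1 inhibitor, one of -0.40 (SE 0.19, adjusted p = 0.499). Of the 8 soluble regulators 6 were below the reference in all pools, C4bp among them. The fibroblast and mesothelial list was lower in both DBA pools for 5 of 10 markers (21.4% of all genes), none past the test. All 5 had an unadjusted p under 0.05 in limma (11.5% of all genes, either direction), with Pdgfra at -0.75 and Col3a1 at -0.58. Of the 10 markers 1 was higher in both DBA pools, Upk3b at 0.61. The mean log2 value of the list was 9.19 in 129 females, 9.07 in 129 males, 8.73 in DBA females and 9.12 in DBA males. Whether such cells contribute to the values of Clu and Serping1 was not tested. Cr1l, the rodent membrane regulator Crry, had a difference of 0.00525 on the log2 scale (95% interval -0.30 to 0.31), and Susd4 one of -0.14.

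The sexes were compared next. Between females and males none of the 8 genes passed (limma with strain in the model), where 0.0180% of all genes did. In all 8 the male pool was below the female pool in both strains, an order found in 19.8% of all genes and in 17.4% of the 13378 with a mean above the background reference. The 8 include Hc, which had no measurable level, since its values lay below the reference in every pool. At an unadjusted p under 0.05, 5 of the 8 differed, where 1.73% of all genes did: C1qa, C1qb, Cfb, C5ar1 and Cfp. The median log2 difference of male to female was -0.52 over the 8 genes and -0.00547 over all genes tested. When each array was set to a common median, an alternative chosen after seeing the data, 7 of the 8 had this order, which 14.4% of all genes then had, and C3ar1 was 0.0545 higher in the DBA male than in the DBA female pool.
C1qa had the largest of these differences, at -0.77 in 129 and -1.11 in DBA macrophages, and -0.94 in the fit (SE 0.16, unadjusted p = 0.00163, adjusted p = 1), which has 1 residual degree of freedom. In limma its adjusted p was 0.092 with arrays scaled to the same quantiles and 0.113 with a common median. Under the other alternatives it was unchanged. C1qb and C1qc differed by -0.23 and -0.15 between the 129 pools and by -0.97 and -1.13 between the DBA pools. Cfb had the reverse balance, with -0.98 in 129 and -0.30 in DBA. C5ar1 differed by -0.53 and -0.34, the X-linked Cfp by -0.27 and -0.49, and C3ar1 by -0.02 and -0.05. Hc, below the background reference, differed by -0.16 and -0.68.
Without strain in the model, C1qa (0.00331) and Cfp (0.0363) had an unadjusted p under 0.05, and C1qb, Cfb and C5ar1 did not. Whether strain and sex interact was not tested, since 4 arrays leave nothing from which to estimate the error of that fit. With 1 pool of each sex in a strain, the sexes and the pools cannot be told apart.
Of the other 45 complement genes, 16 had the male pool below the female pool in both strains, with a median difference of -0.07 and none at an unadjusted p under 0.05. Of the 10 B cell markers 9 had this order, with a median of -0.65, and of the 16 macrophage markers 10 had it, with a median of -0.15, among them the efferocytosis receptor gene Timd4 at -0.78 in 129 and -0.33 in DBA. Their part in the difference of the complement genes was not tested.

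**Figure D4:**
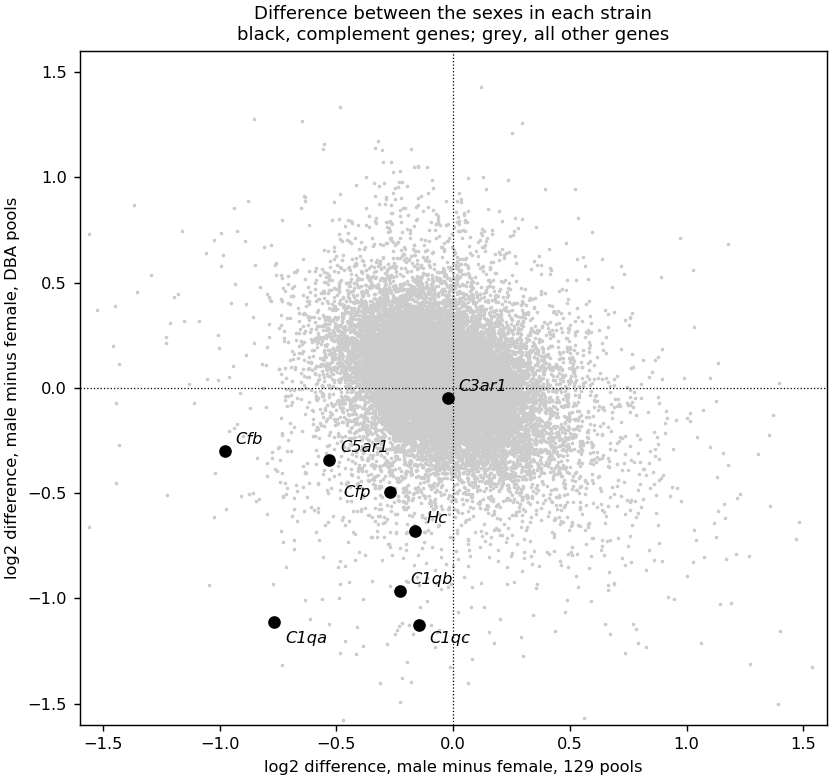
Log2 difference between the male and the female pool in 129 (horizontal axis) and in DBA macrophages (vertical axis) for the 8 complement genes (black) and all other genes (grey, with 23 genes outside the plotted range). All 8 black points lie in the region where both differences are below 0, with C1qa at -0.77 and -1.11 farthest down along both axes together and C3ar1 near 0.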

How the data were processed

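Gene expression of 4 RNA pools was measured on Affymetrix Mouse Gene 2.0 ST arrays. The authors deposited log2 expression values of 41345 probe sets, made with Affymetrix Expression Console per the labels. How the probe signals were summarised and normalized is not given in the sources used here. These values were used as deposited, without a filter on low values. Of the probe sets, 23521 carried 1 gene symbol, and 23328 of these were matched by gene ID to RefSeq (GRCm38.p6) for current symbols and gene order. Where several probe sets carried a gene, that with the highest mean stood for it.

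DBA was compared with 129 in limma 3.58.1 (R 4.3.3, lmFit and eBayes) on strain alone, with 2 residual and 3.73 prior degrees of freedom. The sexes were compared with strain in the model. The fits covered all 22180 genes. The procedure was tested on simulated data. Ratios are of linear means, DBA over 129. Each choice was then varied alone: a block for sex, a prior fitted with trend and robustness, arrays scaled to the same quantiles or the same median, dim probe sets dropped, probe sets averaged by gene or all tested, and every pool omitted in turn.

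The members and lists were chosen with earlier results of these data known. Genes named beside the members were those past the test, up to 4 a list (3 for cell types) with the largest difference among those whose pools did not overlap, the 4 closest patterns for the 3 members with the largest differences, and 3 gene neighbours on each side. The other genes named were chosen for their role after their values were seen. Nothing shows that the pools are separate experiments beyond their sex and strain, so p-values measure the spread between these pools only. Some complement genes of the lists are not reported here.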

Additional observations from a re-analysis of the deposited data

Results flagged for a closer look

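The difference between DBA and 129 had opposite signs in the sexes for 2 genes. For Cfp it was 0.18 on the log2 scale between the female pools and -0.0451 between the male pools, and for Hc 0.19 between the female and -0.32 between the male pools, with every value of Hc below the background reference. With 1 pool of each strain and sex these differences between the sexes were not tested.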

How the results depend on the processing

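The count of members past the test between DBA and 129 stayed at 0 under the 7 alternatives that kept every pool and ranged from 0 to 1 with a pool left out, the 1 being C1qc without the DBA female pool. With a pool left out, the log2 difference of C1qc ranged from -1.26 to -0.13, that of C1qb from -1.17 to -0.20, that of C1qa from -0.81 to 0.30, that of Cfp from -0.18 to 0.31 and that of Hc from -0.41 to 0.27. Leaving out a pool makes the strains unequal in sex, so strain and sex are mixed in every such fit. Hc also changed sign with quantile normalization (0.0194) and with a common median (0.0250), and it was removed with the dim probe sets. C5ar1, Cfb, C1qb, C1qc and C3ar1 kept their sign under all their alternatives. Of the other complement genes, 0 passed when all probe sets were tested together and 0 to 1 with a pool left out. No member passed between the sexes under any of the 6 alternatives, and leaving out a pool was not run there, since it leaves no residual degree of freedom with strain in the model. With sex as a block no call among the complement genes changed. The unadjusted p of C1qb, C1qc and Cfb then fell under 0.05 in limma. The share of all genes under 0.05 in that fit is not given here, so these values have no reference beside them. Over all genes the count of changes was 83, and 47 with sex as a block, 129 with a trended and robust prior, 253 (181 of them higher in DBA, beside 48 of 83) with a common median, 0 when all probe sets were tested, and 16, 6, 135 and 186 without the 129 female, 129 male, DBA female and DBA male pool. The causes were not tested. The values used here come without detection calls, and genes near the background reference, Hc among the members, have no measurable level here.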
